A study of Rattus norvegicus with 7 samples.

Results

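The core autophagy and lysosome machinery comprised 63 genes of the 14702 measured in the thyroarytenoid, the muscle within the vocal fold. They were chosen by symbol: the numbered Atg genes, the Ulk kinases, the Wipi proteins, Wdfy3, the Becn1 and Pik3c3 complexes with Pik3r4, Uvrag and Ambra1, Rb1cc1, Tbk1, the subunits of the vacuolar proton pump (V-ATPase) whose symbols begin with Atp6v, the single-letter cathepsins, Lamp1 to Lamp3, and the transcription factors Tfeb and Tfe3. No symbol was repeated among them. Libraries came from 3 Pink1-/- and 4 wild type (WT) female rats aged 8 months, all of the Long Evans strain. The labels name no treatment, and Pink1-/- is the single genetic difference they give. Every value per gene below is the authors' comparison of Pink1-/- with WT, and values of single rats were not analysed here. An interval given beside a value was implied from the deposited fold change and likelihood ratio and covers 95%.

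Autophagy encloses part of the cytoplasm, or an organelle, in a double membrane that fuses with the lysosome. Kinase complexes start the process, a conjugation system fixes LC3-type proteins to the membrane, and inside the lysosome a proton pump keeps the acid pH at which cathepsins digest the cargo. Pink1 is a kinase of damaged mitochondria that marks them for removal by this route, and skeletal muscle depends on the route to clear worn organelles.

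Pink1 itself was 30.1-fold lower in Pink1-/- muscle (adjusted p 8.24e-49) by the edgeR likelihood ratio test of the authors' deposited table. None of the 63 autophagy and lysosome genes was called at an adjusted p under 0.05 in that test, against 3.05% of all genes, 1.37% higher and 1.68% lower. The lowest adjusted p among them was 0.109, for Atg9a, in the authors' deposited table. At an unadjusted p under 0.05 there were 5 of the 63 (7.94%), all higher in Pink1-/-, against 17.0% of all genes (9.04% higher and 7.99% lower). Those 5 were Atg9a, Atp6v0e2, Atp6v1f, Ctsd and Atp6v0b. None of the 63 reached a 2-fold difference, which 6.58% of all genes did. For 55 of the 63 (87.3%) the implied interval lay wholly within a 2-fold change either way, against 60.9% of all genes, and for 24 (38.1%) it lay within a 1.5-fold change, against 20.2%. The median implied standard error was 0.22 on the log2 scale among the 63 and 0.27 over all genes. The 63 were also more abundant, with a median of mean log2 CPM of 5.12 against 3.97. Relative to genes of like abundance, their implied standard error had a median ratio of 0.98.

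**Figure D1:**
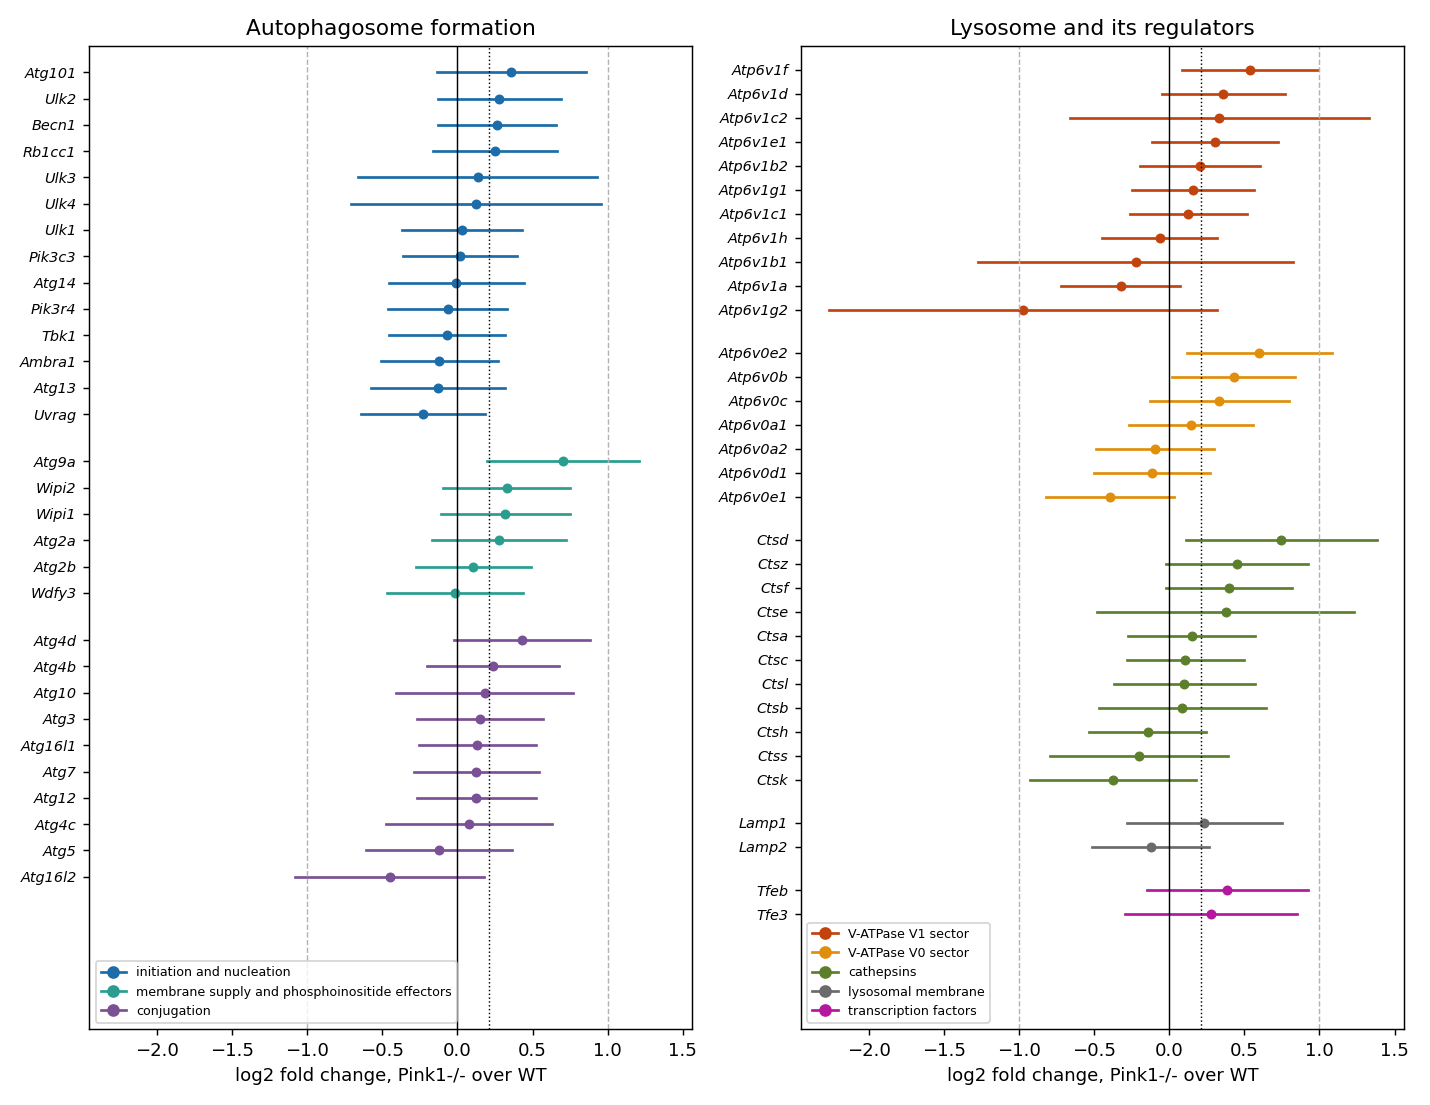
Points give log2 fold changes (Pink1-/- over WT) from the authors' deposited table for each of the 63 genes, and lines the implied 95% intervals; dashed lines mark a 2-fold change and the dotted line the value that would count as 0 if summed CPM were made equal. The intervals of 5 genes lie wholly above 0 and none lies wholly below it.

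The typical member lay slightly above 0. The median log2 fold change was 0.13 over the 63 genes and -0.02 over all genes, and 43 of the 63 (68.3%) were above 0 against 48.0% of all genes. This direction rests on the scaling between libraries: with summed CPM made equal in both genotypes, every log2 fold change drops by 0.21, the median of the 63 becomes -0.08 against -0.23 over all genes, and 24 of the 63 (38.1%) stay above 0 against 28.6%. Under that scaling no member was called either, while over all genes 63 were called higher and 568 lower. The 5 members with an unadjusted p under 0.05 were then Uvrag, Atg16l2, Atp6v1a, Atp6v0e1 and Ctsk. They all lay lower, the side to which the scaling moves every gene.

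Tfeb and Tfe3 encode basic helix-loop-helix factors that switch on genes of the lysosome and of autophagy when they enter the nucleus. Tfeb stood at a log2 fold change of 0.39 (adjusted p 0.498), and Tfe3 at 0.28 (adjusted p 0.689), in the authors' deposited table. The interval of Tfeb ran from -0.15 to 0.92 and that of Tfe3 from -0.30 to 0.85, so both intervals span 0. The upper end of the Tfeb interval corresponds to a 1.90-fold higher level and the lower end to a level of 0.901 times that in WT. Their relative Mitf stood at 0.21 (adjusted p 0.672) in the authors' deposited table.

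The element these factors are known to bind, called CLEAR, has the core TCACGTGA, which is built on the E-box CACGTG. In its full form the core is preceded by G and followed by C. The promoters of the 63 genes were searched for these letters. The choice by symbol did not use sequence, but these factors are known to switch on genes of the lysosome and of autophagy. A raised share among such genes is therefore no independent finding and no result about Pink1-/-. RefSeq (build GRCr8) gave a window from 250 bases before to 50 bases after the start for 55 of the 63. As all 3 motifs are palindromes, 1 search covers both strands, and each longer motif contains the shorter ones. The core was found in 5 of the 55 windows (9.09%), against 0.860% of 27457 promoters of the build and 1.63% of the 10573 that belong to measured genes. The E-box was found in 9 of the 55 (16.4%), against 6.63% of all promoters and 9.02% of those of measured genes. The full form was found in none of the 55, against 0.280% of all promoters. The 5 windows with the core belong to Atg3, Atp6v0d1, Atp6v0e1, Ctsd and Lamp1, and are shown 5′ to 3′ with the core in capitals, to compare the bases around it.
Ctsd, chr1:206968822-206968858, minus strand: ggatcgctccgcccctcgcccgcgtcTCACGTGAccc
Lamp1, chr16:83075069-83075155, minus strand: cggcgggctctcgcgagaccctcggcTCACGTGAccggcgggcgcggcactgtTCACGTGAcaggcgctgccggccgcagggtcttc
Atg3, chr11:69159281-69159323, minus strand: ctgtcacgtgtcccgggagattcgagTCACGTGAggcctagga
Atp6v0d1, chr19:50357268-50357327, minus strand: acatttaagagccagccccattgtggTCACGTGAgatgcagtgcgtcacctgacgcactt
Atp6v0e1, chr10:17007115-17007144, minus strand: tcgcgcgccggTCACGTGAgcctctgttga

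The core ended 4 bases before the annotated start in Ctsd, 10 in Atg3 and 46 in Atp6v0d1, and Lamp1 held 2 copies that ended 59 and 32 bases before it. In Atp6v0e1 it began at base 24 counted from the start, inside the transcribed part. The genes that share the core stood on both sides of 0. Ctsd stood at 0.75, Lamp1 at 0.23, Atg3 at 0.15, Atp6v0d1 at -0.12 and Atp6v0e1 at -0.39 on the log2 fold change scale of the authors' deposited table, and none was called. The sequence upstream of Ctsd is shown in full because it is the gene of these 5 with the smallest p; it holds, besides the core, another E-box further upstream.
Ctsd, chr1:206968822-206969071, minus strand: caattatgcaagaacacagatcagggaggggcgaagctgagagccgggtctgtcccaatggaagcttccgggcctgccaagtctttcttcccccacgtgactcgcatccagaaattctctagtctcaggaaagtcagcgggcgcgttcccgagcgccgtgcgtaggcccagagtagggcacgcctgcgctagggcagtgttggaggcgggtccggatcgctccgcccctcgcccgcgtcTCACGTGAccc

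Genes that start autophagy had, as deposited, the median closest to 0 of the 8 groups, but with summed CPM made equal it was the furthest from 0, at -0.19. The group held 14 genes, with a median log2 fold change of 0.02, a range from -0.23 (Uvrag) to 0.36 (Atg101), 8 above 0 and 6 below, and an interval within 2-fold for all 14. None had an unadjusted p under 0.05. The ULK complex, the kinase unit that receives nutrient signals, had 4 of its 5 genes above 0. Atg101, which stabilises Atg13, stood at 0.36 (adjusted p 0.497) in the authors' deposited table. Ulk2, a catalytic kinase, stood at 0.28 and its scaffold Rb1cc1, also known as FIP200, at 0.25 in the authors' deposited table. The other catalytic kinase, Ulk1, lay at 0.03 with an interval from -0.37 to 0.43, and Atg13, its regulatory partner, at -0.13 in the authors' deposited table. The relatives Ulk3 and Ulk4 were both listed at 0.13 in the authors' deposited table, with few reads behind each (mean log2 CPM of 1.61 and 2.30) and wide intervals.

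The class III phosphoinositide 3-kinase makes the lipid signal that marks the forming membrane. Its catalytic subunit Pik3c3 stood at 0.02, its regulatory subunit Pik3r4 at -0.06 and Atg14, which directs the complex to autophagy, at -0.01 in the authors' deposited table. All 3 had adjusted p-values above 0.9 there, and their intervals stayed within -0.46 and 0.44. Becn1, the beclin scaffold shared by both forms of the complex, stood at 0.26 (adjusted p 0.543), and Uvrag, which replaces Atg14 in the endosomal form, at -0.23 (adjusted p 0.636) in the authors' deposited table. Ambra1, which binds beclin, stood at -0.12, and Tbk1, a kinase of cargo receptors, at -0.07 in the authors' deposited table.

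Genes for membrane supply lay highest among the autophagy groups. The 6 genes had a median of 0.30, with 5 above 0, and the median stayed above 0, at 0.09, with summed CPM made equal. Atg9a (ENSRNOG00000018975), the only membrane-spanning protein of the core autophagy set and the carrier of lipid vesicles to the growing membrane, stood at 0.70 (p 0.00621, adjusted p 0.109) in the authors' deposited table. Its implied level was 84.4 CPM (counts scaled to a common library total) in WT and 138 CPM in Pink1-/- muscle, a 1.63-fold difference with an interval from 1.15-fold to 2.31-fold. Its standard error was 1.21 times the median of the 200 genes nearest in mean log2 CPM. With summed CPM made equal its adjusted p was 0.234. Wipi2 and Wipi1, which read the lipid signal, stood at 0.33 and 0.32, and the lipid transfer protein genes Atg2a and Atg2b at 0.28 and 0.11, in the authors' deposited table, each with an adjusted p above 0.45. Wdfy3, a large adaptor for protein aggregates, lay at -0.01 (adjusted p 0.987) in the authors' deposited table.

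The middle genes of the conjugation system lay close together, though the group as a whole ran from -0.45 (Atg16l2) to 0.43 (Atg4d). The group held 10 genes with a median of 0.13, and its interquartile range lay between 0.09 and 0.17, a narrower band than the -0.29 to 0.26 of all genes. The median implied standard error of the group, 0.23, was larger than the width of its band. In all, 8 of the 10 were above 0. With summed CPM made equal, 2 were, and the group's median became -0.08. Apart from Atg5, the enzymes and substrates of the reaction lay together. Atg7, the activating enzyme, stood at 0.13, Atg3 and Atg10, the conjugating enzymes, at 0.15 and 0.18, Atg12, the ubiquitin-like protein, at 0.13, and Atg16l1, which places the complex on the membrane, at 0.13 in the authors' deposited table. Atg5, the partner of Atg12, stood at -0.12 with an interval from -0.61 to 0.36. The proteases that trim LC3 spread more widely. Atg4d was listed at 0.43 (p 0.0641, adjusted p 0.333), Atg4b at 0.24 and Atg4c at 0.08, in the authors' deposited table. Atg16l2, a relative of Atg16l1, was the lowest of the autophagy genes at -0.45 (adjusted p 0.501) in the authors' deposited table. Its reads were few (mean log2 CPM 2.65), and its interval, from -1.08 to 0.18, passed a 2-fold decrease.

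**Figure D2:**
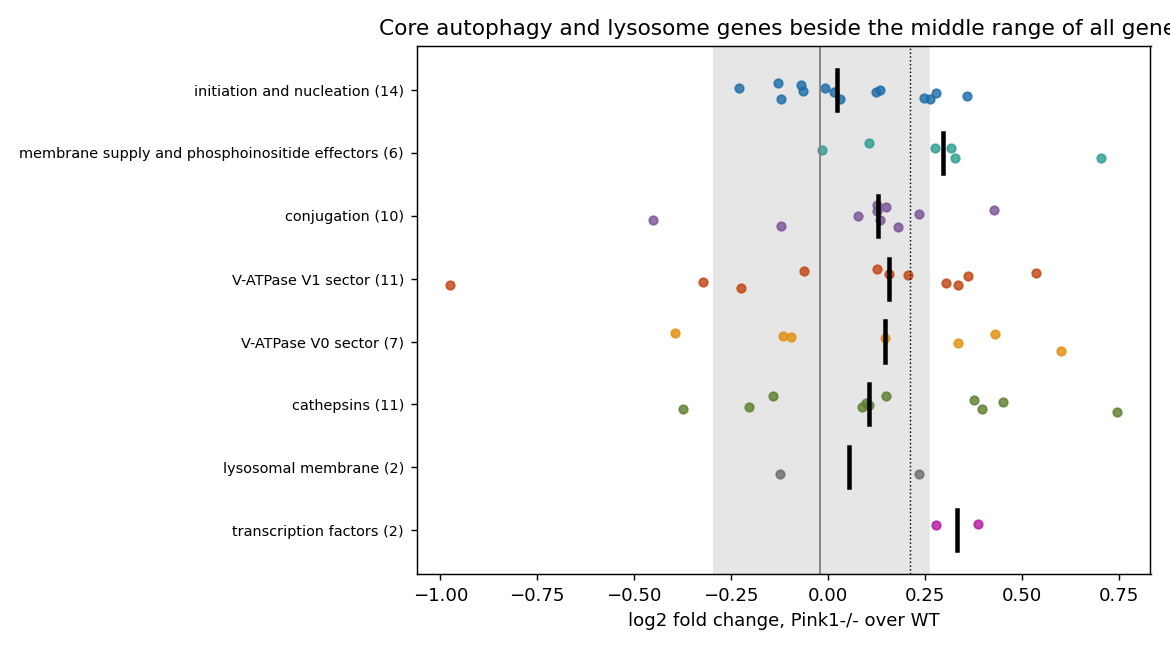
Each point is 1 gene at its log2 fold change of Pink1-/- over WT in the authors' deposited table, with the number of genes per group in brackets; thick bars are group medians, the grey band holds the interquartile range of all genes, the grey line is their median and the dotted line the zero after making summed CPM equal. Medians run from 0.02 for initiation to 0.33 for the transcription factors, and medians of 6 of the 8 groups lie left of the dotted line.

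The substrates of this system are the LC3 and GABARAP proteins. In the list of 13 measured LC3, GABARAP and receptor genes, 1 was called, against 3.05% of all genes. That gene, Map1lc3a, an LC3 protein of the autophagosome, rose by 0.79 (adjusted p 0.0238) in the authors' deposited table. Its call ended with summed CPM made equal (adjusted p 0.104). The list's median was 0.18, with 10 of 13 above 0, and with summed CPM made equal it was -0.03, with 6 above 0. Bnip3, a mitophagy receptor, stood at 0.40 and Gabarapl2 at 0.31 in the authors' deposited table (adjusted p 0.359 and 0.486).

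The V-ATPase was measured through 18 genes, 11 of the V1 sector that splits ATP and 7 of the V0 sector that carries protons across the membrane. Their median was 0.15, with 11 above 0 and 7 below, and 3 of the 18 (16.7%) had an unadjusted p under 0.05, near the 17.0% of all genes. Medians of the sectors were alike, 0.16 for V1 and 0.15 for V0, and with summed CPM made equal both were below 0, at -0.05 and -0.06. Subunits of 1 complex stood on both sides of 0. In V1, Atp6v1f (ENSRNOG00000007392), a subunit of the rotor shaft, stood at 0.54 (p 0.0207, adjusted p 0.195) in the authors' deposited table. Its implied level in WT was 17.5 CPM, against 25.4 CPM in Pink1-/-. Atp6v1d, the other shaft subunit, stood at 0.36 (adjusted p 0.380) there. The catalytic subunit Atp6v1a lay on the other side, at -0.32 (adjusted p 0.426) in the authors' deposited table, and its implied level in WT was 82.0 CPM, against 65.6 CPM in Pink1-/-. Atp6v1b2, the non-catalytic partner of Atp6v1a in the head, stood at 0.21, the stalk subunits Atp6v1e1, Atp6v1g1 and Atp6v1c1 at 0.31, 0.16 and 0.13, and the regulatory subunit Atp6v1h at -0.06 in the authors' deposited table.

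In the V0 sector the paralogous small subunits Atp6v0e1 and Atp6v0e2 lay furthest apart. Atp6v0e2 (ENSRNOG00000008218) stood at 0.60 (p 0.0152, adjusted p 0.169), and Atp6v0e1 at -0.39 (p 0.0708, adjusted p 0.349), in the authors' deposited table. The interval of Atp6v0e2 ran from 0.12 to 1.08 and that of Atp6v0e1 from -0.82 to 0.03, so they did not overlap. These were the highest and lowest genes of the V0 sector, so their intervals were the likeliest to lie apart. In V1 the intervals of Atp6v1f (from 0.082) and Atp6v1a (up to 0.075) did not overlap either. The difference between the paralogs was not tested, since it needs values per rat. Implied levels were 12.4 CPM in WT and 18.8 CPM in Pink1-/- for Atp6v0e2, and 26.3 CPM in WT and 20.02 CPM in Pink1-/- for Atp6v0e1. With summed CPM made equal, Atp6v0e1 had the lowest adjusted p of all 63 genes, 0.0786 at -0.60, and Atp6v0e2 an adjusted p of 0.336 at 0.39. Atp6v0b (ENSRNOG00000019655) and Atp6v0c, the proteolipids of the rotating ring, stood at 0.43 and 0.33 (adjusted p 0.262 and 0.497) in the authors' deposited table. The unadjusted p of Atp6v0b was 0.0391. The stator subunits Atp6v0a1 and Atp6v0a2 lay at 0.15 and -0.10 and Atp6v0d1, which joins the ring to the shaft, at -0.12 in the authors' deposited table.

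The 3 V-ATPase isoforms known from restricted cell types were the least precisely measured. They are Atp6v1b1 and Atp6v1c2, of acid-secreting and other epithelia, and Atp6v1g2, of neurons. Atp6v1g2 had the lowest fold change of the 63 genes, -0.97 (adjusted p 0.469) in the authors' deposited table and an interval from -2.27 to 0.32. Implied CPM of Atp6v1g2 was 2.58 in WT and 1.31 in Pink1-/-. Atp6v1c2 stood at 0.33 and Atp6v1b1 at -0.22 in the authors' deposited table, with intervals from -0.66 to 1.33 and from -1.27 to 0.82. Relative to genes of like abundance, the implied standard errors of these 3 were the largest among the 63 genes, at 1.57 times for Atp6v1c2, 1.52 times for Atp6v1b1 and 1.33 times for Atp6v1g2, against a median ratio of 0.98 over the 63. Markers of nerve and of epithelium differed in the same comparison. All 14 nerve and Schwann cell markers were below 0, with an implied summed level of 578 CPM in WT and 311 CPM in Pink1-/-. All 9 measured squamous epithelium markers were below 0, from 1992 to 902 CPM. Of 10 measured respiratory epithelium and gland markers, 7 were below 0 and 3 above, from 13535 to 5818 CPM. They ranged from -8.92 (Tff2) to 2.32 (Bpifa1) in the authors' deposited table. Of 5 measured markers of acid-secreting epithelium, 3 were above 0, from 16.1 to 30.5 CPM. Bsnd, a chloride channel subunit, carried that rise, at 2.61 (adjusted p 3.52e-07) in the authors' deposited table, and without it, an alternative chosen after seeing the data, the other 4 went from 12.8 to 10.2 CPM. Their part in the isoform values was not tested. In bulk muscle, fewer cells of a type and less RNA per cell cannot be told apart.

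**Figure D3:**
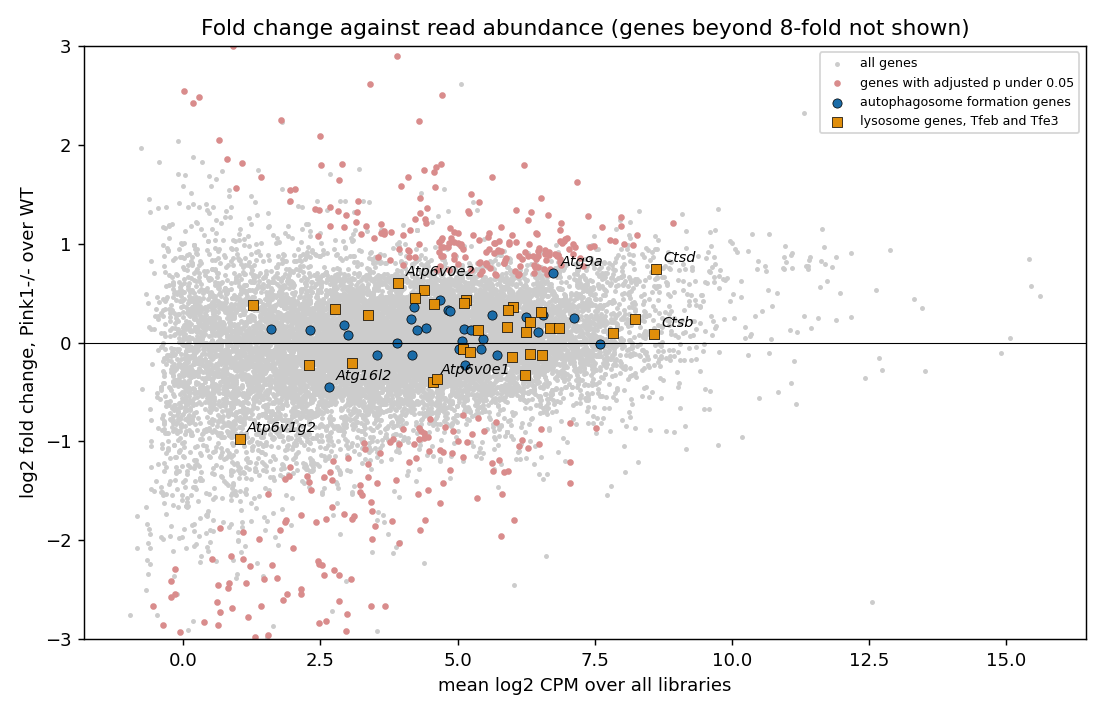
Fold change of Pink1-/- over WT against mean log2 CPM, both from the authors' deposited table; grey dots are all genes, pink dots those with an adjusted p under 0.05, blue circles genes of autophagosome formation and orange squares the lysosome genes with Tfeb and Tfe3. The 63 genes lie inside the grey cloud; 127 genes that differ by more than 8-fold are not drawn.

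Among accessory and assembly proteins of the pump, 13 were measured, with a median of -0.01. Of these 13, 1 was called, against 3.05% of all genes. That gene, Atp6ap1l, a relative of the accessory subunit Atp6ap1, rose by 1.34 (adjusted p 0.0388) in the authors' deposited table. Its call ended with summed CPM made equal (adjusted p 0.0785). The accessory subunits Atp6ap1 and Atp6ap2 themselves stood at 0.22 and -0.23 in the authors' deposited table (adjusted p 0.640 and 0.645).

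The cathepsins, proteases of the lysosome, were represented by 11 genes with a median of 0.11, from -0.37 (Ctsk) to 0.75 (Ctsd). In all 8 were above 0, and 4 with summed CPM made equal, when the median was -0.10. Ctsd (ENSRNOG00000020206), the main aspartic protease of lysosomes, stood at 0.75 (p 0.0214, adjusted p 0.197) in the authors' deposited table. Implied CPM of Ctsd was 304 in WT and 510 in Pink1-/-, and its interval ran from 1.08-fold to 2.61-fold higher. The other aspartic protease, Ctse, had few reads and an interval from -0.48 to 1.23. The 8 cysteine cathepsins centred on 0.09. Ctsz and Ctsf stood at 0.45 and 0.40 (adjusted p 0.326 and 0.329) in the authors' deposited table. The broadly acting Ctsb and Ctsl lay at 0.09 and 0.10 in the authors' deposited table, with intervals from -0.47 to 0.65 and from -0.37 to 0.57, and Ctsc, which activates other proteases, at 0.11. Ctsh stood at -0.14, Ctss, of antigen-presenting cells, at -0.20 and Ctsk, a collagen-degrading cathepsin of osteoclasts and fibroblasts, at -0.37 (adjusted p 0.539) in the authors' deposited table. Ctsa, a serine carboxypeptidase that shields beta-galactosidase, stood at 0.15 (adjusted p 0.788) there.

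Cell type markers beside the cathepsins went in different directions. Macrophage and microglia markers were above 0 in 14 of 15 measured genes (median 0.17), with an implied summed level of 412 CPM in WT and 482 CPM in Pink1-/-, and none was called or had an unadjusted p under 0.05. Of the 15, 7 were above 0 with summed CPM made equal, and the median was then -0.04. Macrophages are rich in lysosomes. Fibroblast markers were below 0 in all 9 measured genes (median -0.56), from 3316 to 2369 CPM. Muscle fibre markers were above 0 in all 13 measured genes (median 0.84), from 57989 to 100007 CPM, with none called and 4 at an unadjusted p under 0.05. Myh4 made up most of that sum, at 32764 CPM in WT and 58665 CPM in Pink1-/-. With summed CPM made equal, 11 of the 13 were above 0 and the median was 0.63. The defining muscle genes Acta1, Ckm and Myh4 had a mean log2 CPM of 11.62, 11.64 and 15.42 in the authors' deposited table, as the labelled tissue calls for. Some respiratory epithelium and gland markers were abundant too, with a mean log2 CPM of 12.65 for Muc5b and 11.32 for Bpifa1 there. The part of these markers in the cathepsin values was not tested.

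Lamp1 and Lamp2 are the main glycoproteins of the lysosomal membrane. Lamp1 stood at 0.23 and Lamp2 at -0.12 in the authors' deposited table (adjusted p 0.714 and 0.810). The interval of Lamp1 ran from -0.28 to 0.75 and that of Lamp2 from -0.51 to 0.26, both within a 2-fold change. The median of the pair was 0.05, and -0.16 with summed CPM made equal.

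Over the 9 lists of other genes of the pathway, 5 of 151 measured genes (3.31%) were called, near the 3.05% of all genes. With summed CPM made equal, 2 of the 151 were called, against 631 of all 14702 genes. Of 34 measured lysosomal hydrolases other than cathepsins, 1 rose and 1 fell, with a median of -0.13. Gaa, which degrades glycogen in lysosomes, rose by 1.05 (adjusted p 0.0258), and Glb1, the lysosomal beta-galactosidase, fell by 1.11 (adjusted p 0.0230), in the authors' deposited table. Galns, a sulfatase, stood at 0.78 (adjusted p 0.0679) there. With summed CPM made equal Glb1 was called lower (adjusted p 0.00306), and the call of Gaa ended (0.0789). Of 25 other lysosomal membrane proteins 1 fell, Tpcn2, a two-pore cation channel of lysosomes, by 1.12 (adjusted p 0.0267) in the authors' deposited table. Sort1, a sorting receptor, stood at 0.82 (adjusted p 0.228) there.

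Genes upstream of autophagy lay higher as far as measured and as deposited, without a call. Of 24 genes of mTORC1, AMPK and folliculin signalling, 21 were above 0 (15 with summed CPM made equal). The median was 0.29 as deposited and 0.07 with summed CPM made equal. In the authors' test 8 of the 24 (33.3%) had an unadjusted p under 0.05, all higher, against 9.04% of all genes in that direction. Rragd, a GTPase that ties amino acids to mTORC1 and to the Tfeb factors, stood at 0.80 (adjusted p 0.0738), Akt1s1, an inhibitor within mTORC1, at 0.74 with 0.0796, and Prkab2, an AMPK subunit abundant in muscle, at 0.79 with 0.0980, in the authors' deposited table. Muscle fibre markers lay on the same side of 0 in the same comparison, with the values above, and their part was not tested. Among 16 genes of fusion between autophagosome and lysosome none had an unadjusted p under 0.05 and the median was 0.02; Vps33a, of the tethering complex, stood at 0.30 (adjusted p 0.532) in the authors' deposited table. Nor had any of 10 other phosphoinositide and lipid regulators (median 0.07) or of 10 relatives of Tfeb and FoxO regulators (median -0.04). The medians of these 3 lists were -0.19, -0.14 and -0.26 with summed CPM made equal. Of 6 cathepsin inhibitors none was called, 1 higher and 1 lower had an unadjusted p under 0.05, and the median was -0.15. Serpinb1a, a protease inhibitor of granulocytes, stood at -0.71 (adjusted p 0.244) in the authors' deposited table.

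**Figure D4:**
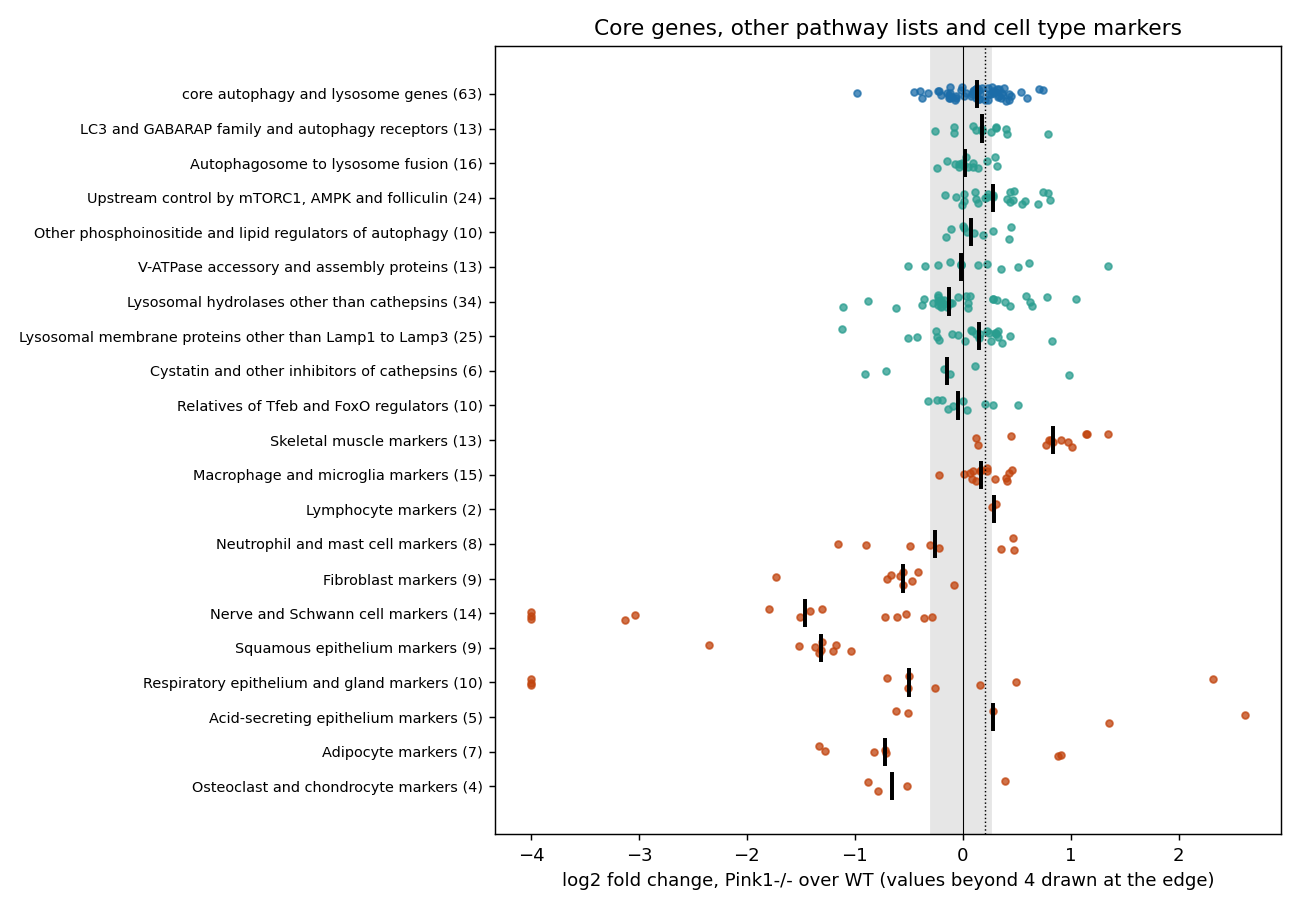
Each point is 1 gene at its log2 fold change of Pink1-/- over WT in the authors' deposited table, for the 63 core genes (blue), other pathway lists (green) and cell type markers (red), with the number measured in brackets; thick bars are medians, the grey band holds the interquartile range of all genes, the dotted line is the zero after making summed CPM equal, and 6 points beyond a log2 value of 4 are drawn at the edge. Pathway medians lie between -0.15 and 0.29, while nerve and squamous epithelium markers lie at -1.46 and -1.31.

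By symbol, 79 protein-coding genes of the RefSeq rat assembly GRCr8 matched the same choice, so 16 were not among the measured genes. They were Atg4a, Atg9b, Lamp3, the V-ATPase genes Atp6v0a4, Atp6v0d2, Atp6v1e2, Atp6v1fnbl, Atp6v1g1l1 and Atp6v1g3, and the cathepsins Ctsg, Ctsj, Ctsm, Ctso, Ctsq, Ctsr and Ctsw. Counts over the 63 do not cover them. Copies named after Atg4b, Atp6v0c, Atp6v1a, Atp6v1e1 and Atp6v1g1 are annotated as pseudogenes in that assembly. The values of these 5 genes are uncertain to the extent that reads were split between copies. Copies under other symbols were not searched for.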

How the data were processed

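RNA sequencing libraries of thyroarytenoid muscle came from 4 WT and 3 Pink1-/- female rats. Per the labels' protocols, total RNA was taken from frozen muscle and libraries were made with an Illumina TruSeq kit. RSEM and edgeR 3.9 were used, per the submitters' processing notes, which give no role for either. Aligner, genome build, annotation, strand setting, low-count filter and scaling between libraries were not given in the sources used here. Overlapping and antisense genes therefore cannot be told apart. The 1 table used holds, per the file headers, the authors' log2 fold change, mean log2 CPM, likelihood ratio score, p-value and adjusted p-value for 14702 genes. It has no values per rat, so the depth per library is unknown here, and no SD, no test across rats and no analysis without single rats could be made.

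The deposited p-values equal the chi-square tail at the likelihood ratio with 1 degree of freedom (largest relative difference 8.29e-13). Calls use the authors' adjusted p under 0.05 over all genes. From the deposited fold change and likelihood ratio a standard error was implied as the size of the first over the root of the second, with a normal 95% interval, which is poor near 0 counts. Implied CPM per genotype assumes equal library sizes. Summed over all genes, it came to 944526 in WT and 1093202 in Pink1-/-. Implied levels given for WT and Pink1-/- are therefore not on an equal total. With summed implied CPM made equal, fold changes drop by 0.21, and p-values were recomputed and adjusted over all genes. The code for these steps was run on simulated data (Python 3.11.15, scipy 1.17.1). Simulated likelihood ratios followed the same formula, so the standard error had to come back, and the intervals were not tested. The simulated shift was estimated from the median of all genes, so the shift to equal summed CPM was not tested either.

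Genes were chosen by symbol, keeping the highest mean log2 CPM if repeated. Genes described in full are the 4 of each group with the smallest p and those with the highest and lowest mean log2 CPM; other lists give up to 3 genes with the smallest p. Genes and lists were chosen with earlier results of these data known, and no list was tested as a set.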

Additional observations from a re-analysis of the deposited data

How the results depend on the processing

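The count of called genes among the 63 was 0 in both directions under every alternative run: summed CPM made equal, the median of all genes at 0, likelihood ratios divided by 1.96 (the ratio of their median to that of chi-square), a minimum of 1 CPM (14320 genes), thresholds of 0.01 and 0.1, and the other way of keeping repeated symbols, which met no repeat. The threshold of 0.01 and the divided ratios could only return 0, since no member was called as deposited. After that division 14 of all 14702 genes were called. The lowest adjusted p was 0.109 as deposited, 0.0786 with summed CPM made equal, 0.0919 with the median at 0, 0.113 with the minimum and 0.876 with divided ratios. With summed CPM made equal every gene and every median drops by the same 0.21, and 6 of the 8 group medians were then below 0: initiation -0.19, lysosomal membrane -0.16, cathepsins -0.10, conjugation -0.081, V0 -0.064 and V1 -0.053. Of the 63 genes 19 changed sign, all from above 0 to below it: Ulk1 (-0.18), Ulk3 (-0.077), Ulk4 (-0.086), Pik3c3 (-0.19), Atg2b (-0.10), Atg3 (-0.062), Atg4c (-0.13), Atg7 (-0.084), Atg10 (-0.030), Atg12 (-0.085), Atg16l1 (-0.078), Atp6v1b2 (-0.0055), Atp6v1c1 (-0.084), Atp6v1g1 (-0.053), Atp6v0a1 (-0.064), Ctsa (-0.061), Ctsb (-0.12), Ctsc (-0.10) and Ctsl (-0.11). Under the other 4 alternatives (median at 0, minimum CPM, weighted mean, largest change left out) each group median moved by less than its group's median implied standard error. That tolerance is wide beside the medians. With the largest change left out, the median of lysosomal membrane went from 0.055 to -0.12, and that of V0 from 0.15 to 0.025. Leaving out single rats was not run, as it needs values per rat. No paired analysis was possible because the table holds no values per rat. Depth per library is unknown here, and its part in the calls was not tested.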

Other observations

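A search of the deposited gene descriptions for words of autophagy, lysosomes, cathepsins and the proton pump found further genes outside the 63, chosen here after their values were seen. Lamp5, a relative of Lamp1 found in neurons, stood at -7.45 (adjusted p 4.94e-04) in the authors' deposited table; its mean log2 CPM was -0.50, and a fold of this size near 0 counts depends on the prior count of the fit and is no bound. Nerve markers fell in the same comparison, 8 of 14 being called lower, against 1.68% of all genes. Tcirg1, which encodes the a3 isoform of the V0 sector, stood at -0.01 (adjusted p 0.991) in the authors' deposited table. Depp1, an autophagy regulator under FoxO control, stood at 0.75 (adjusted p 0.0692) in the authors' deposited table.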
